A study of Mus musculus with 7 samples.

Results

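Heat shock proteins, J proteins and chaperonins were followed in cortical microglia without Srgap2. The genes were taken by symbol, as the numbered Hspa and Hspb genes, Hspd1, Hspe1, Hsph1, the Hsp90 genes, the numbered Dnaja, Dnajb and Dnajc genes, and Cct2 to Cct8 with their variants. The table held 81 such genes among 23420, and 69 of them had enough reads to be among the 11991 genes tested. Poly(A)-selected RNA was sequenced from microglia, the resident macrophages of the brain, which had been sorted from cortices at postnatal day 30 as CD11b+, CD45low, CX3CR1+ cells. The 4 cKO libraries came from Tmem119creErt2+ Srgap2f/f mice, in which a recombinase made from the Tmem119 locus deletes the floxed Srgap2 alleles once tamoxifen is given. The 3 WT libraries came from Srgap2f/f littermates without that recombinase. All mice of both groups carried the floxed alleles and were given tamoxifen in 2 doses of 75 ug/g, at postnatal days 8 and 10. Each library came from 1 numbered mouse, so that the tests measure the spread between mice. Because the recombinase was present in cKO mice and not in WT mice, its effects and those of the Srgap2 deletion cannot be told apart. The comparison asks how microglia that lack Srgap2 differ from their controls in the undisturbed juvenile brain.

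These proteins help other proteins to fold and keep unfolded ones from clumping. Hsp70 proteins bind short exposed stretches and release them as they use ATP. J proteins (Dnaj genes) bring them their clients and start that cycle, and Hsp110 proteins end it by exchanging the nucleotide. Hsp90 takes over clients such as kinases and steroid receptors at a later stage, Hsp60 with its lid Hsp10 folds proteins inside mitochondria, and the ring-shaped chaperonin CCT folds actin and tubulin in the cytosol. The cytosolic stress genes among them are induced by heat shock factors through heat shock elements in their promoters, while those of the endoplasmic reticulum are induced by the unfolded protein response through the ER stress element. In microglia, heat shock and immediate early genes are also known to be induced while tissue is being dissociated.

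A search of promoter windows found each kind of element in some of the chaperone genes. RefSeq promoter sequences on GRCm38.p6, from 250 bases before to 50 bases after each start, were matched for 66 of the 81 genes, and both strands were searched. Hsp90aa1, Hsp90ab1 and Hspa8 were not among the 66. The heat shock element of 3 units, GAANNTTCNNGAA, was in windows of 4 chaperone genes, Hspd1, Hspe1, Hsph1 and Dnajb6, which is 6.06% of those with a window against 0.662% of all 27025 genes with one. Its shorter form of 2 units, GAANNTTC, which lies inside every match of 3 units, was in windows of 16 chaperone genes (24.2%, against 9.04% of all genes). The ER stress element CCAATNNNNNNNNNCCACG was in windows of Hspa5, Hsp90b1 and Dnajc3, which is 4.55% of the chaperone genes against 0.137% of all genes. The other order of 2 units, with TTC first, was not searched. Dnajb1 had windows without either form of the heat shock element, and Dnajb9 and Dnajb11 had windows without the ER stress element. A match is a description of the letters and not evidence that a factor binds there. The stretches below show the elements in genes whose levels are described later. Each is written 5′ to 3′ on the strand of its gene, in lower case with the matched elements in capitals. Hspe1 lies at chr1:55088053-55088082 on the plus strand and holds 2 overlapping matches of 3 units. The starts of Hspe1 and Hspd1 are 215 bases apart on opposite strands, so that the same bases are the match of 3 units for both. Dnaja1, chr4:40722333-40722362 on the plus strand, holds 1 match of 2 units. Hspa1a, chr17:34972157-34972286, and Hspa1b, chr17:34959239-34959368, both on the minus strand, each hold 1 match of 2 units, and these stretches are equal at 129 of 130 bases. Hspa5, chr2:34772019-34772048 on the plus strand, Hsp90b1, chr10:86705510-86705664 on the minus strand, and Dnajc3, chr14:118937822-118937931 on the plus strand, hold the ER stress element, Hsp90b1 with 1 match on each strand.
Hspe1: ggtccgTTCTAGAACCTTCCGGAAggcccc
Dnaja1: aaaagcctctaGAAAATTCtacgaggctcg
Hspa1a: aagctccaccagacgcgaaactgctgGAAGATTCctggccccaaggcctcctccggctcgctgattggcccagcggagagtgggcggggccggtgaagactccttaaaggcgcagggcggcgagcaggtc
Hspa1b: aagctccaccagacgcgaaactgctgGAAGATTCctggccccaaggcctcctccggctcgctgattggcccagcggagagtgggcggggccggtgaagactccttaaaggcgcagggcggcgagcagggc
Hspa5: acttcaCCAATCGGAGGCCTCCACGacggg
Hsp90b1: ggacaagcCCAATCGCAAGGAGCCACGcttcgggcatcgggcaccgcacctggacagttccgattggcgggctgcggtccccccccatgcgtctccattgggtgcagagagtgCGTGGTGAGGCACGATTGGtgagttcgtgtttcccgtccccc
Dnajc3: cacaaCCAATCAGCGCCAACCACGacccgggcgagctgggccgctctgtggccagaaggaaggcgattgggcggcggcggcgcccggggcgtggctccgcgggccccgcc

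Total counts ranged from 27016173 to 35707304 per library. Levels are given in CPM, which relate the count of a gene to the total of its library after TMM scaling, and values of single libraries follow the replicate numbers, 1 to 4 for cKO and 1 to 3 for WT. Srgap2 was at 344, 257, 275 and 212 CPM in the cKO libraries, against 979, 691 and 693 CPM in the WT libraries. These counts cover the whole gene, reads outside the deleted part included. Esr1, the estrogen receptor gene whose ligand-binding domain is part of the recombinase, was at 162 to 212 CPM in cKO and 3.47 to 4.27 CPM in WT, and Tmem119 was at 3005 to 4664 CPM in cKO and 6168 to 7212 CPM in WT. The 15 microglial markers summed to 62024 to 72646 CPM in cKO libraries and to 72905 to 75694 CPM in WT libraries. Tmem119 is 1 of these 15, so part of the difference between the sums is its own. The median log2 fold change of the 15 was −0.05, with 5 above 0 and 10 below, beside 48.1% of all genes tested above 0. Summed markers of the other cells overlapped between the groups for border-associated macrophages (75.6 to 141 CPM in cKO, 78.6 to 122 CPM in WT), lymphocytes (35.9 to 61.7 CPM in cKO, 41.7 to 55.3 CPM in WT), monocytes and neutrophils (8.45 to 10.3 CPM in cKO, 5.96 to 10.7 CPM in WT), astrocytes (89.7 to 142 CPM in cKO, 135.3 to 141 CPM in WT), oligodendrocyte lineage (226 to 332 CPM in cKO, 227 to 257 CPM in WT), neurons (8.19 to 12.1 CPM in cKO, 7.09 to 12.2 CPM in WT) and endothelial and mural cells (59.1 to 78.7 CPM in cKO, 73.9 to 82.2 CPM in WT). Cldn5, Ly6c1, Slco1a4, Rgs5 and Kcnj8, all markers of vessel cells, had no read in any library, nor had the neutrophil marker Retnlg. The part of these cells in the results below was not tested. Xist was at 0.31, 69.4, 0 and 144 CPM in the cKO libraries and at 0.66, 243 and 127 CPM in the WT libraries. The rank correlation of a library's deviations with transcript GC content, across 11908 genes that are not independent of each other, was −0.52, 0.17, −0.42 and 0.44 in the cKO libraries and −0.02, 0.07 and 0.24 in the WT libraries.

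No chaperone gene passed the adjusted threshold of 0.05 between cKO and WT microglia in the quasi-likelihood test of edgeR, in either direction. Among all genes tested 0.359% passed, 0.317% higher and 0.0417% lower in cKO. The smallest adjusted p of a chaperone gene in this edgeR test was 0.10, that of Hsp90aa1. At an unadjusted p under 0.05, 15 of the 69 were higher in cKO (21.7%, against 9.65% of all genes tested) and 2 were lower (2.9%, against 6.87%). Every cKO library was above every WT library for 16 of the 69 (23.2%, against 8.86% of all genes), and every cKO library was below every WT library for 4 (5.8%, against 7.2%). The median log2 fold change of the 69 was 0.07, with 45 above 0 and 24 below, beside a median of −0.01 over all genes, of which 48.1% were above 0. These shares describe the family and were not tested, because its genes are not independent. The family was also chosen with earlier results of these data known, so the shares cannot serve as support for a difference. In bulk RNA, more RNA of a gene per cell and more cells with that RNA cannot be told apart. DESeq2, run as an alternative, called 6 of the 69 higher (8.7%, against 3.12% of all genes), namely Hsp90aa1, Hsp90ab1, Hspe1, Cct2, Dnajc8 and Dnajc9, and called 0 lower (against 1.37%).

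**Figure D1:**
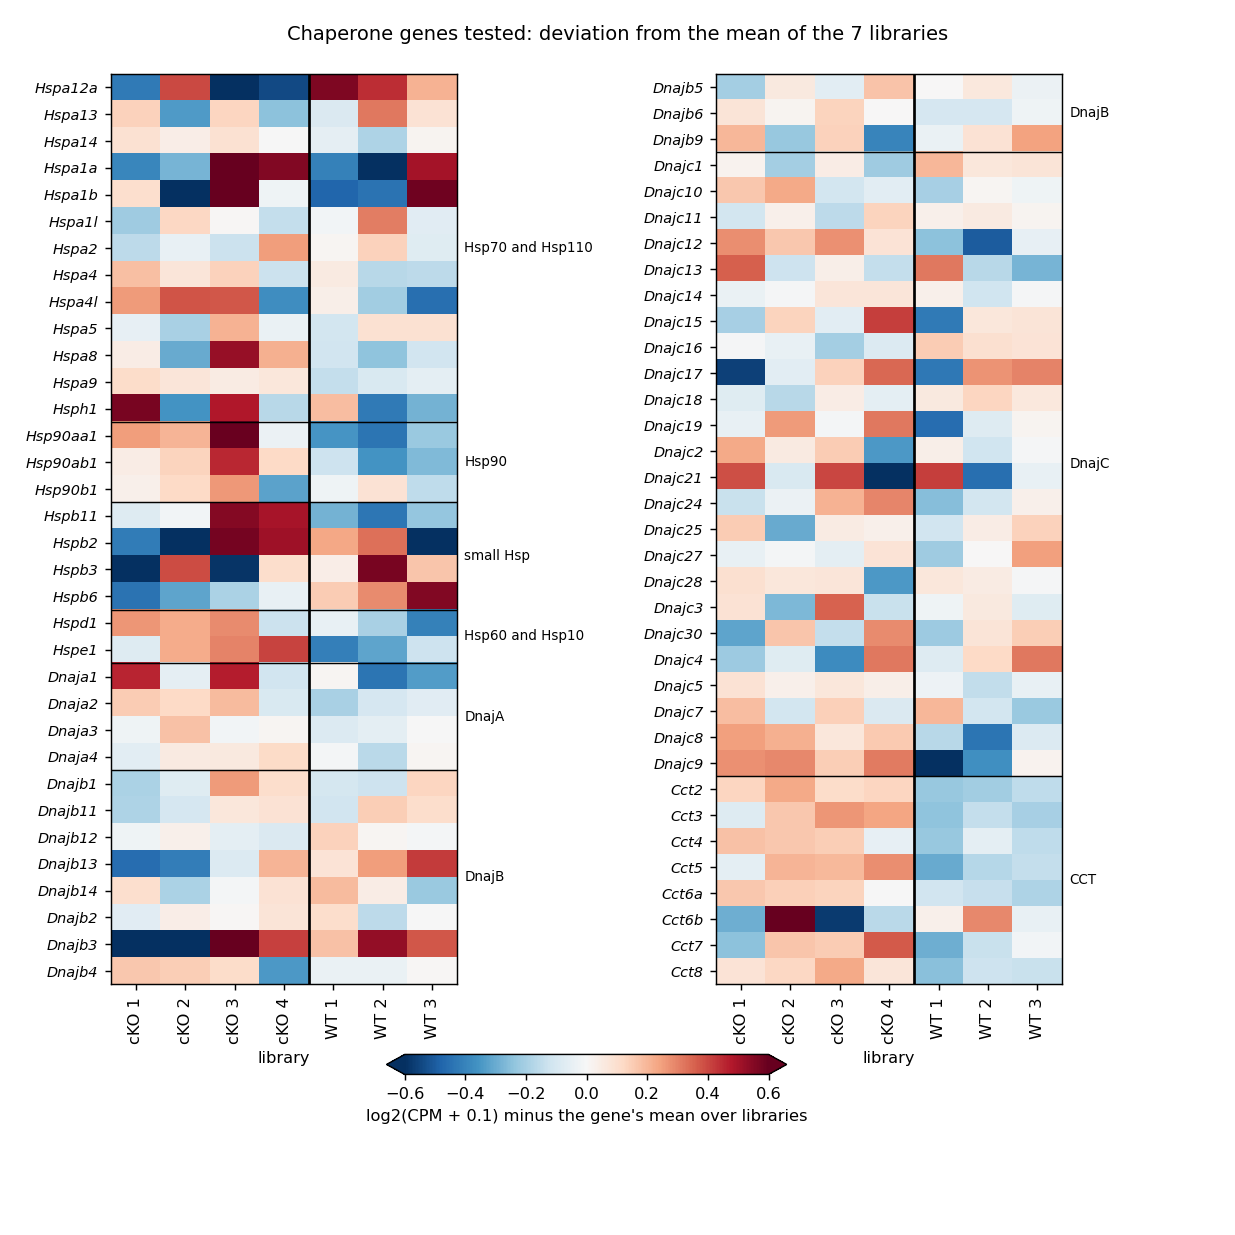
Deviation of each of the 69 chaperone genes tested from its own mean over the 7 libraries, on the log2 scale (colour, with values past the ends of the bar in its darkest shades), with cKO libraries left of the heavy line, WT libraries right of it and genes sorted by role. The Hsp90aa1, Hsp90ab1 and Cct2 to Cct8 rows apart from Cct6b are mostly red in cKO and blue in WT, whereas the Hsp70, DnajB and DnajC rows are mixed.

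Summed over all 81 genes, chaperone transcripts made up 6771, 6706, 7806 and 6697 CPM in the cKO libraries, against 6227, 6221 and 6226 CPM in the WT libraries. Every cKO library was above the WT libraries, and cKO replicate 3 was the highest. The sum averaged 6995 ± 541 CPM in cKO (SD, n = 4) and 6224 ± 3.31 CPM in WT (SD, n = 3), and was not tested. Cytosolic and endoplasmic reticulum forms of Hsp90 and Hsp70 led the family when levels were divided by transcript length. Per kilobase of transcript, Hsp90ab1 averaged 417 CPM in cKO and 307 CPM in WT. By the same measure Hsp90b1 averaged 324 CPM in cKO and 310 CPM in WT, Hspa8 averaged 251.4 CPM in cKO against 203 CPM in WT, and Hspa5 averaged 209 CPM in cKO against 214 CPM in WT. The next were chaperonin subunits, led by Cct5 at 94.2 CPM per kilobase in cKO and 73.2 in WT. Of the genes below the counting filter, Dnajc5b, Dnajc5g and Dnajb8 had no read in any library, and the other 9 had at most 12 reads in a library. Hspb1, the small heat shock protein that is strongly induced by heat in many cells, was one of these, with 1 to 8 reads per library.

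Both cytosolic Hsp90 genes were higher in each cKO library than in any WT library, and the endoplasmic reticulum form was not. Hsp90ab1, the constitutive cytosolic Hsp90, was at 945, 1007, 1253 and 995 CPM in the cKO libraries, against 840, 716 and 763 CPM in the WT libraries. Its groups did not overlap, and its log2 fold change was 0.44 (SE 0.12, edgeR adjusted p = 0.13). For Hsp90ab1 the two-sided exact permutation test gave p = 0.0286, the smallest that the 35 ways of dividing 7 libraries into 4 and 3 can give. For a gene whose groups do not overlap, this p largely restates that they do not. Hsp90aa1, the stress-inducible cytosolic Hsp90, was at 64.4, 62.4, 81.9 and 53.0 CPM in the cKO libraries, against 42.4, 40.0 and 46.4 CPM in the WT libraries. The lowest cKO library of Hsp90aa1, replicate 4, was still above the highest WT library. Its log2 fold change was 0.61 (SE 0.15, edgeR adjusted p = 0.10; two-sided exact permutation p = 0.0571). Of the words of 75 bases in Hsp90aa1 transcripts, 53.1% also occur in another gene of GENCODE M21, mainly a gene named Gm12346, so part of its reads may have been assigned elsewhere, whereas for Hsp90ab1 this share was 0.736%.

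Hsp90b1, the Hsp90 of the endoplasmic reticulum (GRP94), was at 911, 971, 1068 and 715 CPM in the cKO libraries, against 877, 948 and 803 CPM in the WT libraries. Its cKO libraries held both the highest and the lowest value, and the log2 fold change was 0.06 (SE 0.14, edgeR adjusted p = 0.86). Ratios within a library, which do not depend on its total, set the forms apart. The ratio of Hsp90ab1 to Hsp90b1 reads was 1.04, 1.04, 1.17 and 1.39 in the cKO libraries, against 0.958, 0.755 and 0.950 in the WT libraries. The ratio of Hsp90aa1 to Hsp90b1 averaged 0.0714 ± 0.0054 in cKO (SD, n = 4) and 0.0494 ± 0.0078 in WT (SD, n = 3), and its groups did not overlap either. A ratio shows that the genes differed unequally between the groups, not which of them did. The ratio of Hsp90aa1 to Hsp90ab1 overlapped between the groups, at 0.0622 ± 0.0065 in cKO (SD, n = 4) and 0.0557 ± 0.0051 in WT (SD, n = 3).

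Among the Hsp70 and Hsp110 genes, 13 were tested, none passed the edgeR test and their median log2 fold change was 0.16. Hspa8, the constitutive cytosolic Hsp70, was at 559, 440, 779 and 628 CPM in the cKO libraries, against 501, 459 and 501 CPM in the WT libraries. Its cKO replicates 1, 3 and 4 were above all WT libraries and cKO replicate 2 was below them, with a log2 fold change of 0.31 (SE 0.16, edgeR adjusted p = 0.38) that was 0.16 without cKO replicate 3. Hspa8 shares 68.6% of its words of 75 bases with other genes, mainly Gm15459. Hspa5 (BiP), the Hsp70 of the endoplasmic reticulum, was at 747, 676, 892 and 751 CPM in the cKO libraries, against 716, 824 and 823 CPM in the WT libraries. Its groups overlapped, with a log2 fold change of −0.04 (SE 0.12, edgeR adjusted p = 0.91), and none of its words of 75 bases is shared. Hspa9 (mortalin), the mitochondrial Hsp70, was at 125, 122, 120 and 122 CPM in the cKO libraries, against 105, 109 and 111 CPM in the WT libraries. Every cKO library of Hspa9 was higher by a small margin (log2 fold change 0.17, SE 0.09, edgeR adjusted p = 0.38; two-sided exact permutation p = 0.0286).

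The heat-inducible Hsp70 genes had few counted reads. Words of 75 bases shared with other genes made up 61.7% of Hspa1a and 55.8% of Hspa1b. Part of their reads may therefore have been assigned elsewhere or not counted. Hspa1a was at 0.55, 0.61, 2.22 and 1.16 CPM in the cKO libraries, against 0.55, 0.22 and 1.12 CPM in the WT libraries. Hspa1b was at 1.25, 0.58, 2.69 and 1.13 CPM in the cKO libraries, against 0.80, 0.83 and 1.79 CPM in the WT libraries. Both were highest in cKO replicate 3, and in both genes the groups overlapped. Hspa1a shares 52.7% of its words of 75 bases with Hspa1b, so their reads were also added: the sum was 1.80, 1.18, 4.91 and 2.30 CPM in the cKO libraries, against 1.35, 1.05 and 2.90 CPM in the WT libraries (log2 fold change 0.51, SE 0.48, edgeR adjusted p = 0.65). Alone, Hspa1b had a log2 fold change of 0.29 with all libraries and −0.22 without cKO replicate 3. Hsph1, the inducible Hsp110, was at 46.9, 24.6, 44.1 and 28.2 CPM in the cKO libraries, against 35.99, 23.6 and 25.95 CPM in the WT libraries. The 3 libraries that were high for Hsph1, cKO replicates 1 and 3 and WT replicate 1, were those with the least Xist, and its log2 fold change was 0.34 (SE 0.23, edgeR adjusted p = 0.51) without and 0.10 with Xist as a covariate; what part Xist-linked differences have in it was not tested. Hspa12a, an atypical Hsp70, was at 1.84, 3.32, 1.57 and 1.69 CPM in the cKO libraries, against 3.73, 3.43 and 2.90 CPM in the WT libraries. It had the lowest log2 fold change of the family, −0.67 (SE 0.28, edgeR adjusted p = 0.26), with cKO replicate 2 inside the WT range.

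**Figure D2:**
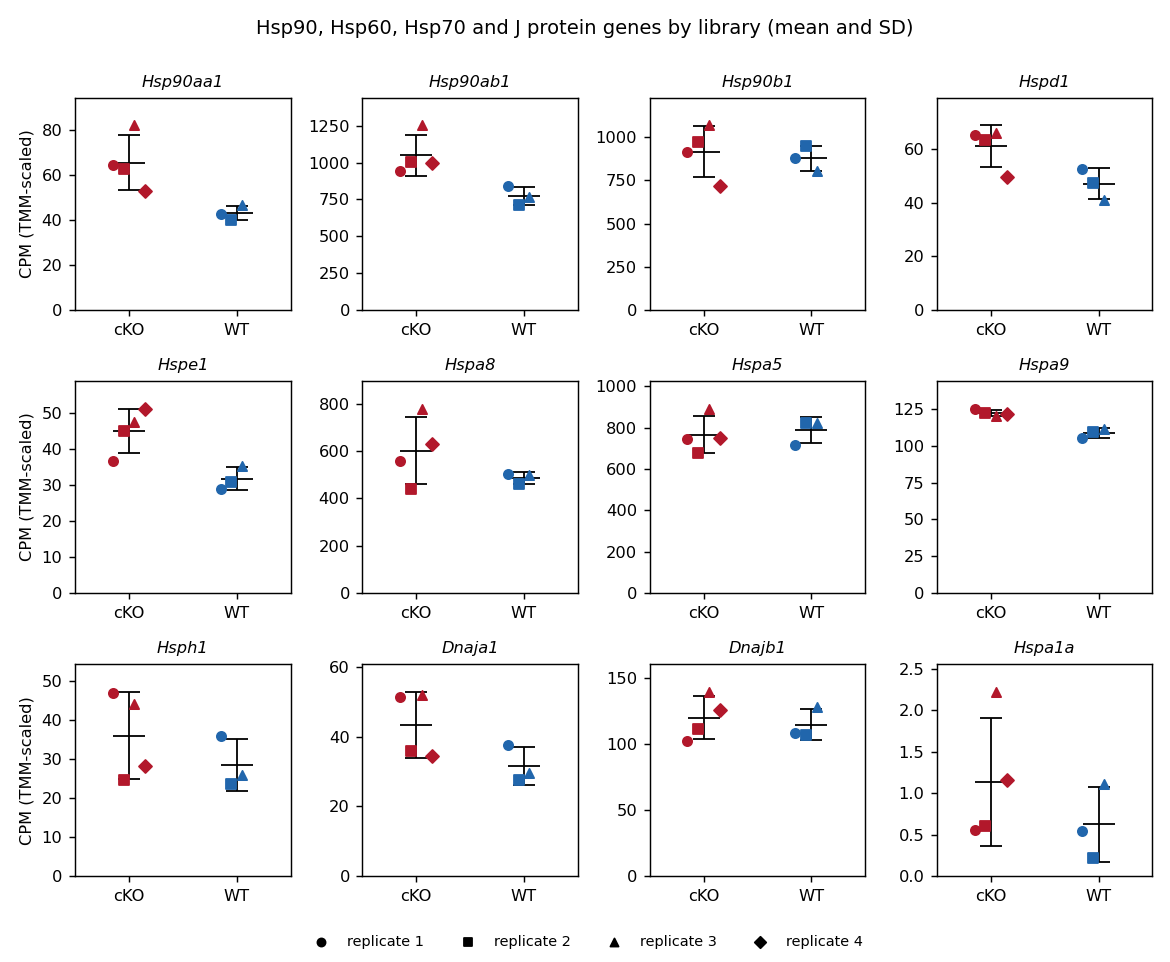
Level in TMM-scaled CPM of 12 Hsp90, Hsp60, Hsp10, Hsp70, Hsp110 and J protein genes in each library (points, shaped by replicate number). The mean and SD are drawn for the cKO (n = 4, left) and WT (n = 3, right) libraries. The labels do not say whether replicate numbers pair mice. Hsp90aa1, Hsp90ab1, Hspe1 and Hspa9 show no overlap between the groups, and the other 8 genes overlap.

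Both genes of the mitochondrial folding chamber were higher in cKO on average. Hspe1 (Hsp10), its lid, was at 36.5, 44.9, 47.4 and 51.0 CPM in the cKO libraries, against 28.9, 30.8 and 35.3 CPM in the WT libraries. Its groups did not overlap, and the log2 fold change was 0.50 (SE 0.14, edgeR adjusted p = 0.13; two-sided exact permutation p = 0.0571). Hspd1 (Hsp60) was at 65.4, 63.6, 66.3 and 49.8 CPM in the cKO libraries, against 52.7, 47.5 and 41.1 CPM in the WT libraries. The first 3 cKO libraries were above all WT libraries and cKO replicate 4 lay within the WT range (log2 fold change 0.38, SE 0.14, edgeR adjusted p = 0.19). These genes start from the shared promoter printed above, and their ratio within a library ranged widely. Hspe1 reads per Hspd1 read were 0.558, 0.707, 0.715 and 1.02 in the cKO libraries, against 0.549, 0.649 and 0.858 in the WT libraries, so that the ratio overlapped between the groups. Their transcripts differ in GC content, at 51.7% for Hspe1 and 46.8% for Hspd1. With offsets for GC content and length, the log2 fold change was 0.34 for Hspe1 and 0.35 for Hspd1. What part GC content has in the ratio was not tested. Shared words of 75 bases made up 33.7% of Hspd1 and 29.1% of Hspe1, so reads of their processed copies may be among these. A group of 7 genes whose proteins work in mitochondria held Hspd1, Hspe1, Hspa9, Dnaja3, Dnajc11, Dnajc15 and Dnajc19. Its median log2 fold change was 0.17 (range −0.05 to 0.50), with 2 of the 7 genes higher in every cKO library, beside 8.86% of all genes tested. The group was made after the values were seen and is not complete. It leaves out Dnajc4, Dnajc28 and Dnajc30, with log2 fold changes of −0.19, −0.05 and 0.005.

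A group of 8 genes whose proteins work in the endoplasmic reticulum was also made after the values were seen and may not be complete. Its median log2 fold change was −0.06 (range −0.20 to 0.13), with 3 above 0 and 5 below. The 3 genes with an ER stress element in their window were at −0.04 (Hspa5), 0.06 (Hsp90b1) and 0.04 (Dnajc3, the protein kinase inhibitor p58IPK) on the log2 fold change scale, and each overlapped between the groups. Dnajb11 (ERdj3), a J protein that serves Hspa5, was at 139, 148, 166 and 168 CPM in the cKO libraries, against 146, 176 and 170 CPM in the WT libraries (log2 fold change −0.08, SE 0.11, edgeR adjusted p = 0.78). Dnajb9 (ERdj4), which is induced by the unfolded protein response, was at 55.2, 41.0, 52.8 and 36.5 CPM in the cKO libraries, against 46.6, 51.0 and 56.7 CPM in the WT libraries (log2 fold change −0.15, SE 0.15, edgeR adjusted p = 0.68). The cKO libraries of Dnajb9 spread more widely than the WT libraries and overlapped them. The 4 genes with a heat shock element of 3 units, of which Hspd1 and Hspe1 share theirs, had a median log2 fold change of 0.36, with Hspe1 at 0.50, Hspd1 at 0.38, Hsph1 at 0.34 (0.10 with Xist as a covariate) and Dnajb6 at 0.13. The 2-unit form searched, GAANNTTC, was in windows of 12 tested genes. Of these 12, 9 were above 0 (48.1% of all genes tested) and 3 below (median 0.31). Whether the elements have a part in this was not tested.

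**Figure D3:**
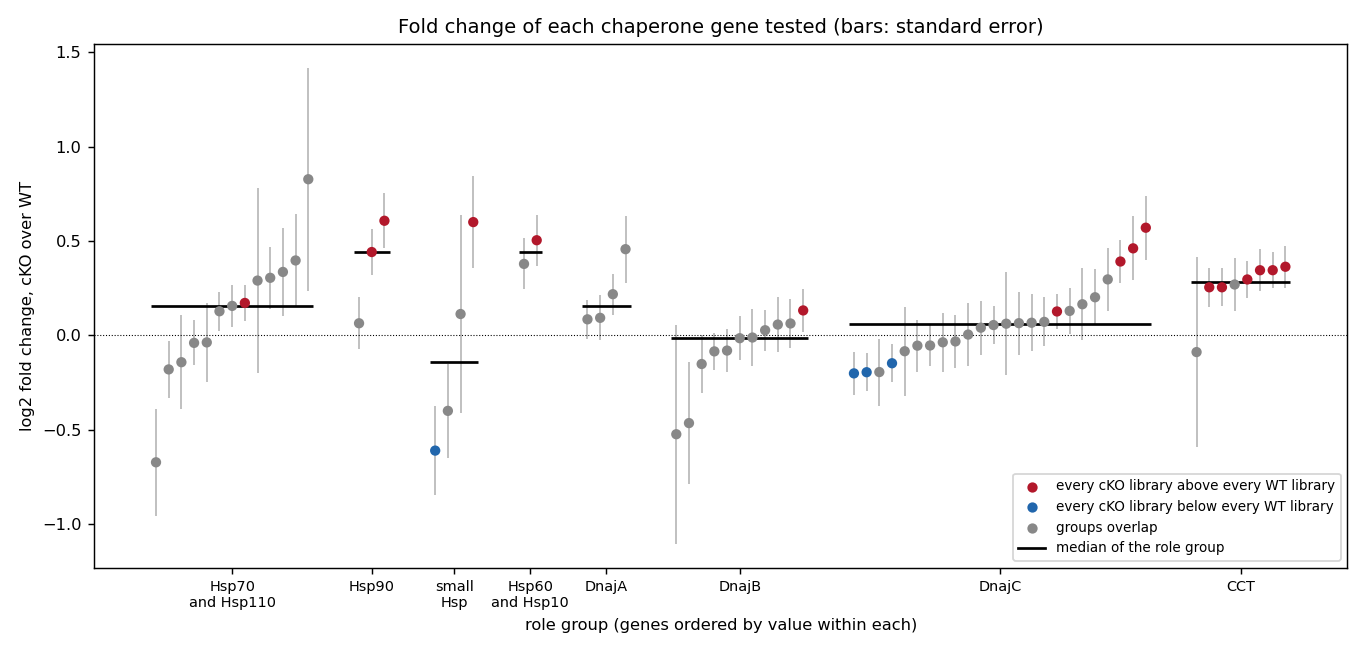
Log2 fold change, cKO over WT, of each of the 69 chaperone genes tested (points, with bars for the standard error), grouped by role and sorted within each role, with the median of the role as a black line. Of the 16 red points, whose cKO libraries all lie above all WT libraries, 6 are chaperonin subunits and 4 are DnajC genes, and 3 of the 4 blue points, the reverse, are DnajC genes.

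Of the cytosolic chaperonin, 6 of the 8 Cct genes tested were higher in every cKO library, beside 8.86% of all genes tested, and none passed the edgeR test. The 9 Cct genes in the table include Cct8l1, which had at most 1 read in a library, and Cct6b, a form made mainly in testis, which was at 0.24, 0.61, 0.18 and 0.28 CPM in the cKO libraries, against 0.33, 0.41 and 0.31 CPM in the WT libraries. The other 7 encode subunits of the ring. Cct2 was at 167, 179, 165 and 167 CPM in the cKO libraries, against 131, 132 and 138 CPM in the WT libraries. The groups of Cct2 stood clear of each other, with a log2 fold change of 0.35 (SE 0.09, edgeR adjusted p = 0.13; two-sided exact permutation p = 0.0286). Cct5 was at 150, 180, 179 and 190 CPM in the cKO libraries, against 127, 139 and 142 CPM in the WT libraries (log2 fold change 0.36, SE 0.11, edgeR adjusted p = 0.15). Cct3 was at 143, 169, 182 and 178 CPM in the cKO libraries, against 128, 137 and 132 CPM in the WT libraries (log2 fold change 0.35, SE 0.11, edgeR adjusted p = 0.16). Permuting the libraries (exact, two-sided) gave p = 0.0571 for each of them. In both of these genes cKO replicate 1 was the lowest cKO library and lay nearest to the WT libraries.

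Cct8 was at 147, 151, 163 and 146 CPM in the cKO libraries, against 117, 127 and 127 CPM in the WT libraries (log2 fold change 0.30, edgeR adjusted p = 0.17). Cct6a was at 86.7, 85.7, 85.0 and 77.4 CPM in the cKO libraries, against 71.5, 70.5 and 68.3 CPM in the WT libraries (log2 fold change 0.26, edgeR adjusted p = 0.23). Cct4 was at 136, 134.7, 133 and 117 CPM in the cKO libraries, against 103, 116 and 109 CPM in the WT libraries (log2 fold change 0.26, edgeR adjusted p = 0.25). Permuting the libraries (exact, two-sided) gave p = 0.0286 for Cct8 and p = 0.0571 for Cct4 and Cct6a. For Cct4 and Cct6a the lowest cKO library was replicate 4, and for Cct4 it came within 1 CPM of the highest WT library. Cct7 was the one subunit of the 7 whose groups overlapped, at 169, 225, 223 and 259 CPM in the cKO libraries, against 164, 183 and 198 CPM in the WT libraries (log2 fold change 0.27, SE 0.14, edgeR adjusted p = 0.37). Tcp1, which encodes the eighth subunit and is outside the symbol rule, was at 90.8, 94.96, 87.6 and 87.7 CPM in the cKO libraries, against 72.3, 78.5 and 79.9 CPM in the WT libraries. Its groups did not overlap either, with a log2 fold change of 0.23 (SE 0.10, edgeR adjusted p = 0.27).

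Added together, the 8 subunit genes, Tcp1 included, gave 1091, 1220, 1217 and 1222 CPM in the cKO libraries, against 913, 983 and 993 CPM in the WT libraries. The sum averaged 1187 ± 64.6 CPM in cKO (SD, n = 4) and 963 ± 43.8 CPM in WT (SD, n = 3). The subunits stand in equal numbers in the ring, but their transcripts did not. With reads divided by transcript length, Cct5 made up 17.3 ± 0.82% of the subunit total in cKO (SD, n = 4) and 16.7 ± 0.23% in WT (SD, n = 3), and Cct7 made up 16.5 ± 2.05% in cKO and 16.9 ± 0.93% in WT. Cct6a and Tcp1 were the scarcest, Cct6a with 6.31 ± 0.61% in cKO and 6.53 ± 0.44% in WT, and Tcp1 with 6.82 ± 0.50% in cKO and 7.17 ± 0.06% in WT. Each of these 4 shares differed between the groups by less than its SD in cKO. Those of Cct5 and Tcp1 differed by more than their SD in WT, and those of Cct7 and Cct6a by less. Within cKO, the shares of Cct4 and Cct7 went opposite ways between libraries: Cct4 made up 11.04, 9.73, 9.65 and 8.39% and Cct7 13.9, 16.5, 16.4 and 19.0% in the cKO libraries. Shares of a fixed total cannot all move the same way. GC content was 45.1% for Cct4 transcripts and 54.0% for Cct7 transcripts. The extreme shares were in cKO replicates 1 and 4, whose rank correlations with GC content were −0.52 and 0.44. What part GC content has in this was not tested.

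**Figure D4:**
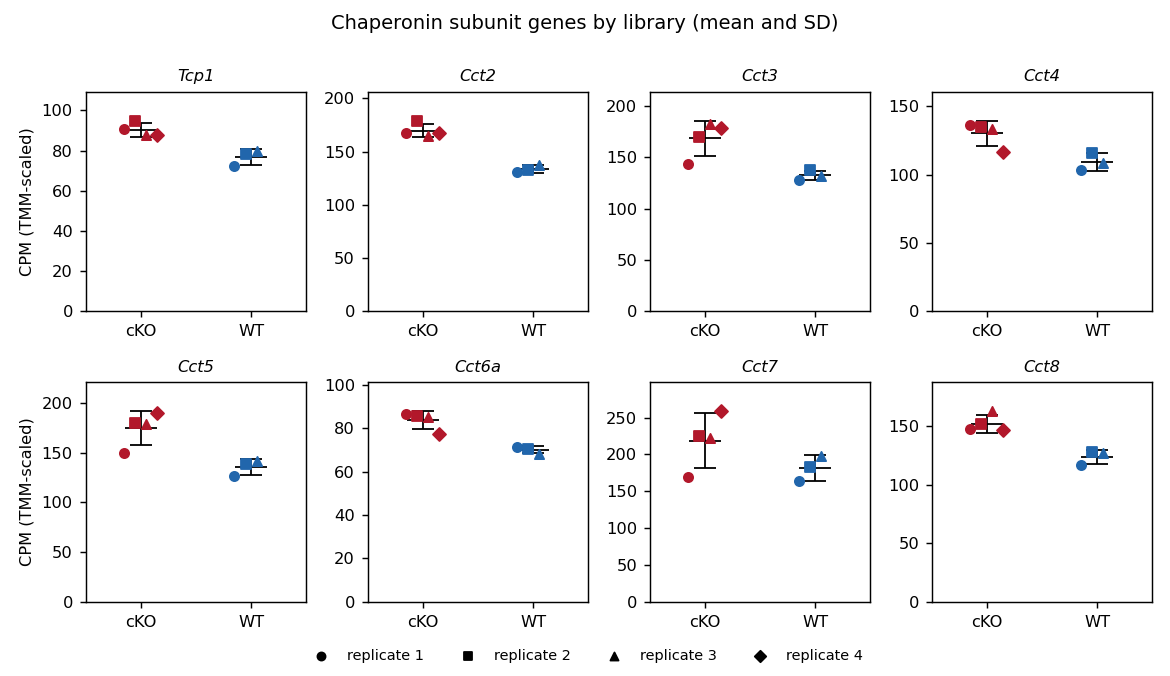
Level in TMM-scaled CPM of the 8 subunit genes of the cytosolic chaperonin in each library (points, shaped by replicate number). The mean and SD are drawn for the cKO (n = 4, left) and WT (n = 3, right) libraries. The labels do not say whether replicate numbers pair mice. All cKO points lie above all WT points in 7 of the panels, and in Cct7 the cKO range of 169 to 259 CPM overlaps the WT range of 164 to 198 CPM.

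Of the J protein genes tested, 0 of 4 DnajA, 1 of 11 DnajB and 7 of 24 DnajC genes did not overlap between the groups, beside 16.1% of all genes tested. Of the DnajA genes, which resemble the bacterial founder of the family most, all 4 had log2 fold changes above 0 (median 0.16) and none passed the edgeR test. Dnaja1, a cytosolic partner of Hspa8, was at 51.2, 35.9, 51.8 and 34.5 CPM in the cKO libraries, against 37.7, 27.5 and 29.6 CPM in the WT libraries. Replicates 1 and 3 of cKO were above all WT libraries and the other 2 lay within the WT range (log2 fold change 0.46, SE 0.18, edgeR adjusted p = 0.22). As for Hsph1, the high libraries within each group were those with little Xist, and the log2 fold change of Dnaja1 was 0.29 with Xist as a covariate; what part this has was not tested. Words of 75 bases shared with other genes made up 26.2% of Dnaja1. Dnaja2, another cytosolic partner of Hsp70, was at 98.7, 96.7, 101 and 83.4 CPM in the cKO libraries, against 77.5, 82.8 and 84.7 CPM in the WT libraries (log2 fold change 0.22, edgeR adjusted p = 0.34). Dnaja3, the mitochondrial J protein, differed by less than its spread, with a log2 fold change of 0.09 (SE 0.10, edgeR adjusted p = 0.74).

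The 11 DnajB genes tested had a median log2 fold change of −0.01, and none reached an unadjusted p under 0.05. Dnajb1 (Hsp40), the heat-inducible partner of Hspa1a, was at 103, 112, 140 and 126 CPM in the cKO libraries, against 109, 107 and 128 CPM in the WT libraries. Its groups overlapped, with a log2 fold change of 0.06 (SE 0.13, edgeR adjusted p = 0.86). Dnajb6, which keeps aggregation-prone proteins soluble, was the one DnajB gene higher in every cKO library, at 22.5, 21.6, 23.3 and 21.3 CPM in the cKO libraries, against 19.9, 19.8 and 20.9 CPM in the WT libraries. Its log2 fold change was 0.13 (SE 0.11, edgeR adjusted p = 0.61; two-sided exact permutation p = 0.0286). Dnajb13, a gene of motile cilia and sperm tails, was scarce, at 0.62 to 1.04 CPM in cKO and 0.95 to 1.23 CPM in WT (log2 fold change −0.46, SE 0.32, edgeR adjusted p = 0.52).

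The DnajC genes, which share little but the J domain, held 4 of the genes higher in every cKO library and 3 of those lower, beside 8.86% and 7.2% of all genes tested, with a median log2 fold change of 0.06 over the 24 tested. Dnajc8, which is found with the splicing machinery, was at 104, 102, 92.2 and 98.3 CPM in the cKO libraries, against 78.6, 65.0 and 83.3 CPM in the WT libraries. Its groups did not overlap (log2 fold change 0.39, SE 0.12, edgeR adjusted p = 0.15). Dnajc9, a chaperone of newly made histones H3 and H4, was at 16.7, 16.9, 15.3 and 17.1 CPM in the cKO libraries, against 8.62, 10.7 and 14.0 CPM in the WT libraries. The cKO libraries of Dnajc9 lay close together, and the WT libraries were all lower and spread more widely (log2 fold change 0.57, SE 0.17, edgeR adjusted p = 0.15). Dnajc12, which binds the aromatic amino acid hydroxylases, was at 8.21, 7.55, 8.15 and 7.14 CPM in the cKO libraries, against 5.66, 4.73 and 6.50 CPM in the WT libraries (log2 fold change 0.46, SE 0.17, edgeR adjusted p = 0.20). For Dnajc8, Dnajc9 and Dnajc12 alike, two-sided exact permutation gave p = 0.0286.

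Dnajc5, the cysteine string protein of secretory vesicles, had the highest CPM of the DnajC genes and was at 215, 207, 213 and 208 CPM in the cKO libraries, against 199, 183 and 197 CPM in the WT libraries. Every cKO library was higher by a small margin (log2 fold change 0.13, SE 0.09, edgeR adjusted p = 0.55; two-sided exact permutation p = 0.0286). Dnajc7, which binds both Hsp70 and Hsp90, averaged 162 ± 17.3 CPM in cKO (SD, n = 4) and 154 ± 24.1 CPM in WT (SD, n = 3), a difference within the spread. The 3 DnajC genes lower in every cKO library differed little: Dnajc16 was at 64.3 to 73.6 CPM in cKO and 78.4 to 82.2 CPM in WT, with a log2 fold change of −0.19 (edgeR adjusted p = 0.36; two-sided exact permutation p = 0.0286). Dnajc1, an endoplasmic reticulum membrane protein, had a log2 fold change of −0.20 (edgeR adjusted p = 0.41; two-sided exact permutation p = 0.0857), and that of Dnajc18 was −0.15 (edgeR adjusted p = 0.51; two-sided exact permutation p = 0.0571).

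Of the 8 small heat shock proteins, which hold unfolded proteins without ATP, 4 had enough reads to be tested. Hspb3, a small heat shock protein known mainly from muscle, was the most abundant of them, at 24.1 CPM per kilobase of transcript in cKO and 31.7 in WT, whereas the other 3 tested were at 5.18 or less in cKO and 3.41 or less in WT on that scale. Hspb3 was at 12.7, 26.8, 13.6 and 22.03 CPM in the cKO libraries, against 21.05, 30.4 and 22.9 CPM in the WT libraries (log2 fold change −0.40, SE 0.25, edgeR adjusted p = 0.46). Its lowest libraries in each group, cKO replicates 1 and 3 and WT replicate 1, were those with the least Xist. Its log2 fold change was −0.24 with Xist as a covariate, −0.24 without WT replicate 2 and −0.62 without cKO replicate 2. Hspb6 (Hsp20) was at 1.42, 1.56, 1.71 and 1.90 CPM in the cKO libraries, against 2.19, 2.41 and 2.93 CPM in the WT libraries. All its cKO libraries were lower (log2 fold change −0.61, SE 0.24, edgeR adjusted p = 0.22; two-sided exact permutation p = 0.0286). Hspb11, better known as the ciliary transport protein IFT25, was at 2.46, 2.57, 3.86 and 3.71 CPM in the cKO libraries, against 2.12, 1.90 and 2.20 CPM in the WT libraries. All its cKO libraries were higher (log2 fold change 0.60, SE 0.24, edgeR adjusted p = 0.24; two-sided exact permutation p = 0.0857), so that the genes at the ends of this role went opposite ways at low levels.

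Of 33 partners of Hsp70 and Hsp90 in the cytosol, 28 had a log2 fold change above 0, beside 48.1% of all genes tested. The edgeR test called 1 of the 33 higher, beside 0.317% of all genes tested. St13 (Hip), which steadies Hsp70 while it holds a client, rose in cKO. It was at 197, 201, 209 and 171 CPM in the cKO libraries, against 134.7, 119 and 111 CPM in the WT libraries. The groups of St13 stood well apart, with a log2 fold change of 0.68 (SE 0.11, edgeR adjusted p = 0.036). The St13 call was lost when cKO replicate 2, cKO replicate 3 or any single WT replicate was left out, and its log2 fold change lay between 0.61 and 0.77 over all 21 alternatives. None of the 33 passed as lower, and 5 had a log2 fold change below 0. At an unadjusted p under 0.05, 10 were higher and 0 lower, beside 9.65% and 6.87% of all genes tested. The median log2 fold change was 0.25. Stip1 (Hop), which links Hsp70 to Hsp90, was at 117, 102, 143 and 126 CPM in the cKO libraries, against 89.9, 73.7 and 83.5 CPM in the WT libraries (log2 fold change 0.56, SE 0.13, edgeR adjusted p = 0.098). Ahsa1, which activates the ATPase of Hsp90, was at 116, 139, 153 and 159 CPM in the cKO libraries, against 99.1, 103 and 106.1 CPM in the WT libraries (log2 fold change 0.46, edgeR adjusted p = 0.13). Ptges3 (p23), which holds Hsp90 closed on its client, had a log2 fold change of 0.44 (edgeR adjusted p = 0.13). In each of these 3 genes every cKO library was above every WT library. Bag3, a partner of Hsp70 that is itself induced by heat shock, overlapped between the groups at 46.7 to 72.7 CPM in cKO and 34.6 to 84.6 CPM in WT.

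The 9 partners of the chaperonin that were tested, Tcp1 among them, all had log2 fold changes above 0 (median 0.24), beside 48.1% of all genes tested. None of the 9 passed the edgeR test. Pfdn1 and Pfdn5, subunits of prefoldin, which hands actin and tubulin to the chaperonin, were at 0.49 (edgeR adjusted p = 0.22) and 0.38 (edgeR adjusted p = 0.27). Of the 5 heat shock factors and regulators tested, none passed and the median log2 fold change was −0.14. Hsf1, the main factor of the heat shock response, was at 46.8 to 53.4 CPM in cKO and 43.9 to 58.0 CPM in WT. Hsbp1, a small protein that binds heat shock factor trimers, was at 167, 180, 171 and 207 CPM in the cKO libraries, against 119, 127 and 138 CPM in the WT libraries (log2 fold change 0.50, SE 0.11, edgeR adjusted p = 0.092). Every cKO library of Hsbp1 was higher, while those of Hspbap1, which is named for binding a small heat shock protein, were all lower (log2 fold change −0.37, edgeR adjusted p = 0.25).

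A further list held 29 other genes of folding in the endoplasmic reticulum and of the unfolded protein response. Of these 29, 7 had a log2 fold change above 0 (48.1% of all genes tested) and 22 below. None passed the edgeR test, 1 was higher and 3 lower at an unadjusted p under 0.05 (9.65% and 6.87% of all genes tested), and the median log2 fold change was −0.10. Syvn1, a ubiquitin ligase that disposes of misfolded proteins there, was at 67.0, 63.1, 68.1 and 67.1 CPM in the cKO libraries, against 92.6, 80.8 and 80.9 CPM in the WT libraries. All cKO libraries of Syvn1 were lower (log2 fold change −0.35, SE 0.10, edgeR adjusted p = 0.14). Sec61b, a part of the channel into the endoplasmic reticulum, was the one higher (log2 fold change 0.48, edgeR adjusted p = 0.20). Of 14 genes of mitochondrial folding and proteolysis none passed and none reached an unadjusted p under 0.05 (median −0.05), with Trap1, the Hsp90 of mitochondria, and Tomm70a, an import receptor that takes over clients from Hsp70 and Hsp90, both at 0.19. Of the 4 other stress-induced genes tested none passed, with 2 above 0 and 2 below. Clu, a chaperone of body fluids, overlapped between the groups (log2 fold change 0.46, SE 0.34, edgeR adjusted p = 0.55). The 35 genes known to be induced by dissociation were divided, with 18 above 0 and 17 below: none passed, 2 were higher and 5 lower at an unadjusted p under 0.05 (9.65% and 6.87% of all genes tested), and the median log2 fold change was 0.03. Jun was at 160 to 185 CPM in cKO and 133 to 141 CPM in WT (edgeR adjusted p = 0.16), whereas Btg2 was at 186 to 198 CPM in cKO and 229 to 244 CPM in WT (edgeR adjusted p = 0.14), and neither had overlapping groups.

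Across alternative ways of analysing the counts, both the sizes and the number of calls moved. In each of 21 alternatives, the 7 leaving out a library included, Hsp90aa1 (0.48 to 0.71), Hsp90ab1 (0.35 to 0.56), Hspe1 (0.31 to 0.59), Hspd1 (0.29 to 0.48), Dnajc8 (0.28 to 0.47), Dnajc9 (0.42 to 0.77) and Dnaja1 (0.29 to 0.62) had log2 fold changes above 0. The same held for Cct2 (0.31 to 0.37), Cct3 (0.31 to 0.40), Cct4 (0.22 to 0.31), Cct5 (0.32 to 0.41), Cct6a (0.22 to 0.29), Cct7 (0.17 to 0.36) and Cct8 (0.24 to 0.32). That of Hsp90b1 (−0.02 to 0.17) was above 0 in 20 alternatives and below 0 in 1. That of Hspa5 (−0.12 to 0.02) was below 0 in 20 and above 0 in 1. With Xist as a covariate edgeR called 8 chaperone genes higher (11.6%, against 6.21% of all genes) and 0 lower (against 2.59%). They were Hsp90aa1, Hsp90ab1, Hspe1, Cct2, Cct3, Cct5, Dnajc8 and Dnajc9. With offsets for GC content and length it called 5 higher (7.25%, against 4.47% of all genes), Hsp90aa1, Dnaja1, Cct2, Cct3 and Cct5, and 0 lower (against 1.06%). With the offsets and Xist together it called 11 higher (15.9%, against 8.33% of all genes) and 0 lower (against 3.31%). The replicate number as a block gave 2 higher, against 1.44% of all genes, and 0 lower, against 0.959%, and with the offsets added it gave 6 higher, against 4.49% of all genes, and 1 lower, against 1.52%. The run of mouse numbers as a factor gave 1 higher, Hspe1, against 1.14% of all genes, and 0 lower, against 0.275%, and leaving out cKO replicate 1 gave the same 1 gene, against 0.933% of all genes, and 0 lower, against 0.261%. Limma-voom with sample quality weights called 10 higher (14.5%, against 4.27% of all genes) and 0 lower (against 3.27%). Of the 69 genes, 6 were higher in all 3 libraries with the least Xist than in the other 4 (8.7%, against 10.8% of all genes), and 5 were lower (7.25%, against 8.26%). Of the libraries, cKO replicate 3 held the highest value for 20 of the 69 genes, and WT replicates 1 and 2 the lowest for 16 and 15.

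**Figure D5:**
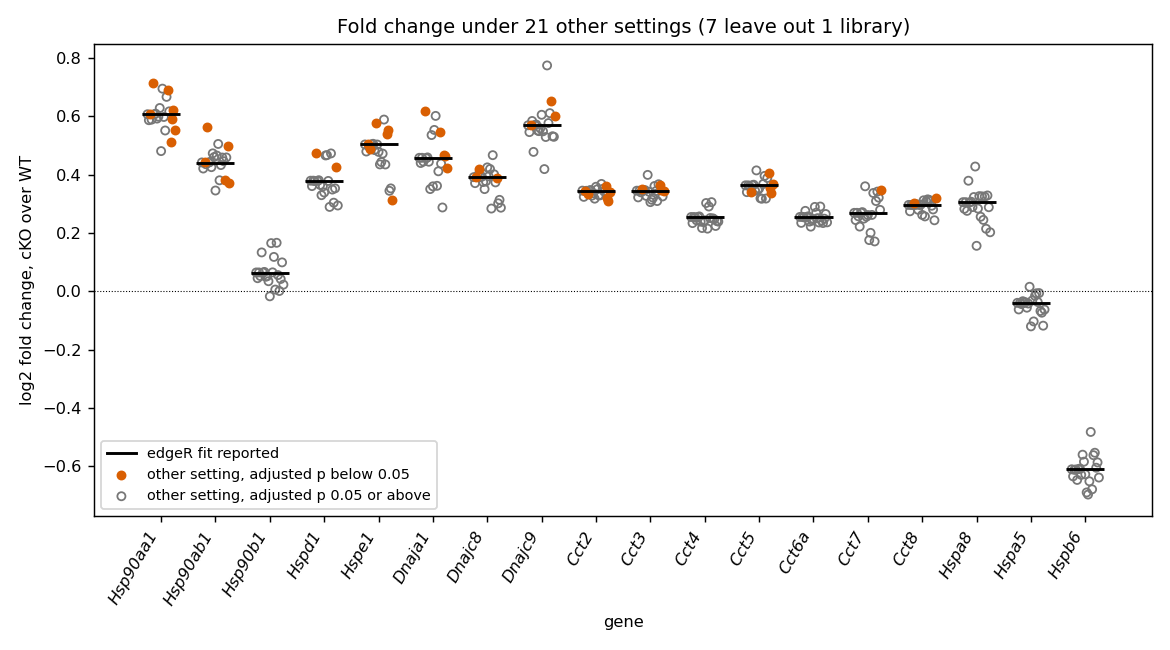
Log2 fold change, cKO over WT, of 18 chaperone genes (x axis) in the edgeR test reported (black line) and in 21 alternatives (circles, filled where the adjusted p was below 0.05). All circles lie above 0 except 1 of Hsp90b1, 20 of Hspa5 and all of Hspb6, which lie below it. Filled circles occur under some alternatives only.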

How the data were processed

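RNA-seq of 4 cKO and 3 WT libraries of sorted cortical microglia was analysed from whole-number counts per gene that the authors deposited in 1 table, not normalized. The submitters' processing notes name DRAGEN and GRCm39. Annotation, counting rule and strandedness were not given in the sources used here, so reads of overlapping genes, antisense genes and near-identical copies have an uncertain assignment. No pair of libraries within a group was a repeat (chi-square per degree of freedom 18.0 to 93.1).

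Genes were kept with filterByExpr (least count 10, least total count 15), scaled with TMM factors and tested with the robust quasi-likelihood test of edgeR 4.0.16 (R 4.3.3) over all 11991 genes, with Benjamini-Hochberg adjustment and a threshold of 0.05. The procedure was tested on simulated data. A standard error is the log2 fold change over the square root of F. Means of TMM-scaled CPM carry the SD, and a prior count of 2 entered log2 CPM. Permutation tests were exact, two-sided and on mean log2 CPM. Lengths, GC content and shared words of 75 bases came from GENCODE M21, and promoter windows from RefSeq.

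Alternatives were RLE and upper-quartile factors, DESeq2 1.42.0, limma-voom (limma 3.58.1) alone and with quality weights per sample, the non-robust edgeR fit, a filter of 1 CPM in 3 or more libraries or none, each library left out in turn, blocks for the replicate number and for the run of mouse numbers, an Xist covariate (log2 CPM), and loess offsets (span 0.3) for GC content and length, alone, with the block and with Xist. The members and gene lists were chosen with earlier results of these data known. Genes named are the 3 with the smallest p and the 2 with the highest CPM of each role, the well-known heat shock genes, all Cct genes and, of each list, those past the threshold or the 2 with the smallest p. Other genes named (Ahsa1, Ptges3, Bag3, Tcp1, Hsf1, Dnajc1, Dnajc3, Dnajc4, Dnajc11, Dnajc15, Dnajc16, Dnajc18, Dnajc19, Dnajc28, Dnajc30 and, below, Dnajb4) and the ratios and sums were chosen after their values were seen. A gene that this rule takes is not reported here, though it stays in the counts.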

Additional observations from a re-analysis of the deposited data

Results flagged for a closer look

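In 6 of the 69 chaperone genes tested, 1 of the 4 cKO libraries stood apart from the other 3 by more than the 95% critical value of Dixon's test. Chance alone gives this in about 5% of groups. Cct2, a chaperonin subunit, was at 179 CPM in cKO replicate 2, against 165 to 167 CPM in the other cKO libraries. Hspa12a, an atypical Hsp70, was at 3.32 CPM in cKO replicate 2, against 1.57 to 1.84 CPM in the others. In cKO replicate 4, Hspd1 (Hsp60) was at 49.8 CPM, against 63.6 to 66.3 CPM in the others, and the chaperonin subunit Cct4 was at 117 CPM, against 133 to 136 CPM. The J protein genes Dnajb4 (17.6 CPM, against 24.1 to 24.9 CPM) and Dnajc28 (16.5 CPM, against 22.03 to 22.5 CPM) were also low in cKO replicate 4.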

How the results depend on the processing

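The median log2 fold change of the chaperone genes, 0.07 in the result reported, stayed above 0 in all 21 alternatives and was 0.13 both with sample quality weights and with the replicate block. Leaving out 1 library gave 0.055 to 0.13. No call was turned to the other direction. Chaperone genes called higher were 0 in the result reported, 6 with DESeq2, 10 with quality weights, 1 with the mouse-number run, 8 with Xist, 5 with GC and length offsets, 11 with the offsets and Xist, and 0 to 1 when 1 library was left out (Hspe1 without cKO replicate 1). Over all genes, those called higher were 38 in the result reported, 374 with DESeq2, 512 with quality weights, 72 with no filter, 137 with the mouse-number run, 745 with Xist, 536 with offsets, 999 with offsets and Xist, and 2 to 111 when 1 library was left out. Those called lower were 5 in the result reported, 10 with upper-quartile factors, 164 with DESeq2, 392 with quality weights, 17 with no filter, 8 with the 1 CPM filter, 33 with the mouse-number run, 311 with Xist, 127 with offsets, 397 with offsets and Xist, and 2 to 31 when 1 library was left out. The cause of these moves was not tested.

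The labels do not say whether replicate numbers pair the mice. Deviations of same-numbered libraries correlated at 0.39, 0.07 and −0.17, and not every library correlated best with its own number. So few libraries cannot exclude a pairing. With the replicate block, 2 chaperone genes were higher (Dnaja1 and Hsp90aa1), with 173 genes higher and 115 lower in all. With the block and the offsets, 6 were higher and 1 lower (Hspb3), with 538 and 182 in all.

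Depth limits the scarce genes: 12 of the 81 could not be tested, and Hspa1a, Hspa1b and the testis-type Cct6b rest on few reads. Sex, litter and sort day are not given in the labels.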
